A study of Mus musculus with 40 samples.

Results

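A set of 10 genes of the Nodal and Bmp signalling pathways was followed through 3 tables of RNA-seq counts from E14tg2a, a mouse embryonic stem cell line. They were Nodal, Lefty1, Lefty2, Tdgf1, Smad7, Skil, Id1, Id2, Id3 and Bmp4, taken by their symbols as 10 of the 55276 genes of the genotype and time course tables and of the 55291 genes of the Pramel7 table. All 10 passed the filter on low counts in each table, beside 21193, 20161 and 20612 genes in all. The study removed or returned CtBP, a pair of corepressors encoded by Ctbp1 and Ctbp2, and looked at its bearing on Dux and on the 2-cell-like state. The genotype table held 2 libraries each of wild type (WT), Dux knockout (DuxKO), Dppa2 knockout (Dppa2KO), Ctbp double knockout (CtbpDKO), and CtbpDKO cells that had also lost Dux (Ctbp_DuxTKO) or Dppa2 (DKO_Dppa2KO). The Pramel7 table held 4 WT libraries and 2 each of DuxKO, Pramel7 knockout (P7KO), Pramel7 overexpression (P7OE) and overexpression in Dux knockout cells (DuxKO_P7OE). The time course table held 2 libraries of CtbpDKO cells under doxycycline labels at each of days 0, 3, 9, 12 and 18. All cells grew in serum with LIF. The labels do not say how many clones stand behind a genotype, which promoter drove Pramel7 or Ctbp2, on which days doxycycline was given, or whether the libraries of a group came from separate cultures, so p-values measure the spread between these libraries, which may be technical. The sample names of DKO_Dppa2KO disagree in part: the title calls it a Dppa2 and Dux triple knockout, and the description a Ctbp double knockout with Dppa2 lost.

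Nodal and Bmp4 are secreted ligands of the TGF-beta superfamily. Nodal needs the membrane coreceptor Tdgf1 (Cripto) and signals through Smad2, Smad3 and Foxh1. Its targets Lefty1 and Lefty2 are secreted antagonists that close a feedback loop. Bmp4 signals through Smad1 and Smad5, with Id1, Id2 and Id3 as direct targets. The Id proteins bind basic helix-loop-helix factors and keep them off DNA, and in embryonic stem cells they are known for holding back neural differentiation in serum. Smad7 and Skil (SnoN) are intracellular inhibitors, and both are themselves induced by the ligands they restrain.

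RefSeq promoters were found for 5 of the 10 genes (Nodal, Tdgf1, Id2, Id3 and Bmp4) on GRCm38.p6, the build mm10 of the submitters' processing notes. The 250 bases before the start site were searched on both strands for GGCGCC (a Smad1/5 site), CAGAC (the Smad binding element) and AATNCACA (a Foxh1 site). Among 32851 promoters of the same length, 9.59% held the first, 42.2% the second and 3.18% the third. Shown are the 4 promoters whose genes differed at least 2-fold between DuxKO and WT in the genotype table. Capitals mark the matches. Id2 lies on the minus strand at chr12:25096093-25096342, Id3 on the plus strand at chr4:136143572-136143821, Bmp4 on the minus strand at chr14:46390670-46390919 and Tdgf1 on the minus strand at chr9:110946159-110946408.
Id2: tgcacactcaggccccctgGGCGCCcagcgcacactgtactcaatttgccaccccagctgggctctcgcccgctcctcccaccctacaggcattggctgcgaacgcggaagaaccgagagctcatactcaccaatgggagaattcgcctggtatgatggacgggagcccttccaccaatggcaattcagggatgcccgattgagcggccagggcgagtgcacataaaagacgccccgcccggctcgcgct
Id3: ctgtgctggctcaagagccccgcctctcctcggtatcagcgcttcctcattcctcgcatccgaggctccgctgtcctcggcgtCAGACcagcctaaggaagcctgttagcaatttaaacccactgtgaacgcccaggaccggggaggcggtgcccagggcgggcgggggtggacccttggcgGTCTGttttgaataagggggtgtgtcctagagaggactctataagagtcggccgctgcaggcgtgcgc
Bmp4: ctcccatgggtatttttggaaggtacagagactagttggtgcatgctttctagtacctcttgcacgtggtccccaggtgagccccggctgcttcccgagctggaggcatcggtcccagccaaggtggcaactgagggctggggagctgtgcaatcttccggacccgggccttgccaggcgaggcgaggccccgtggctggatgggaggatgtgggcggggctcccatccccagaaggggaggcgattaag
Tdgf1: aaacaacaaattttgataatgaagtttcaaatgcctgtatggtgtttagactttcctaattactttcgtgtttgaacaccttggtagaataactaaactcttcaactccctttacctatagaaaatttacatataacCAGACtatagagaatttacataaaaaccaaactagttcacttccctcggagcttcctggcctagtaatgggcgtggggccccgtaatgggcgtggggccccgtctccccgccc
The Id2 window held GGCGCC, first base 231 bases before the start site. The Id3 window held CAGAC at 167 bases and, on the other strand, at 68 bases before it. The Tdgf1 window held CAGAC at 113 bases. The Bmp4 and Nodal windows held none of these motifs, which says only that these letters are not in the windows.

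The shallowest and deepest libraries had 19944644 and 36025046 counts in the genotype table, 10123058 and 30135341 in the Pramel7 table, and 16674526 and 30169626 in the time course. All 8 markers of embryonic stem cells averaged over 1 CPM (counts per 1000000 counts of the library, whose total is scaled by edgeR's TMM factor) in every group. Ctbp1 held 0 to 4 counts in the libraries labelled CtbpDKO, Ctbp_DuxTKO and DKO_Dppa2KO, and Ctbp2 stood between 36.5 and 43.8 CPM there, against 211 and 215 CPM in WT. Dppa2 stood at 29.1 and 33.3 CPM in Dppa2KO and at 19.7 and 21.3 CPM in DKO_Dppa2KO, against 57.3 and 60.9 CPM in WT. Duxf3, the Dux gene, held 0 or 1 count in WT, which checks nothing, and held 24 and 40 counts in CtbpDKO but 0 in Ctbp_DuxTKO and in DKO_Dppa2KO. Pramel7 held 2 to 4 counts per WT library of its table, so its loss in P7KO (0 and 3 counts) could not be checked, while P7OE held 431 and 435 counts and DuxKO_P7OE 537 and 588. In bulk RNA, fewer cells that express a gene and less RNA per cell cannot be told apart.

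Loss of Ctbp1 and Ctbp2 went with less Lefty1, Skil and Id2, and with more Bmp4, Id1 and Smad7. Of the 10 genes, 4 were higher and 5 lower in CtbpDKO than in WT, where 26.1% of all genes tested were called at an adjusted p under 0.05, 14.7% higher and 11.4% lower. The median log2 fold change was -0.29 over the 10 genes and 0.0073 over all genes tested. Calls for Lefty1, Skil and Id2 held under each alternative tried, and those for Smad7, Id1 and Bmp4 under each but a 2-fold minimum.

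Among the ligands, Bmp4 stood at 13.2 and 15.9 CPM in the WT libraries and at 27.4 and 26.8 CPM in CtbpDKO. Both knockout libraries lay above both WT libraries, a log2 fold change of 0.90 ± 0.12 (SE, adjusted p = 9.54e-05). Nodal stood at 60.7 and 59.7 CPM in WT and at 81.8 and 76.6 CPM in CtbpDKO. It was 1.32-fold higher (adjusted p = 0.0107), a call lost without WT replicate 1, WT replicate 2 or CtbpDKO replicate 1 (adjusted p = 0.0577, 0.0809 and 0.102). The coreceptor gene Tdgf1 was not called, at 284 and 269 CPM in WT and 233 and 252 CPM in CtbpDKO (log2 fold change -0.19 ± 0.12, adjusted p = 0.294).

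The antagonist gene Lefty1 showed one of the steepest changes among the 10. Its WT libraries stood at 77.3 and 77.1 CPM and its CtbpDKO libraries at 23.9 and 19.5 CPM. Lefty1 thus fell by 1.83 ± 0.16 on the log2 scale (adjusted p = 1.94e-06). Its neighbour Lefty2 stood at 30.8 and 30.2 CPM in WT and at 24.4 and 19.5 CPM in CtbpDKO, a smaller change (log2 fold change -0.47 ± 0.12, adjusted p = 0.011). The Lefty2 call was lost without WT replicate 1 (adjusted p = 0.0656) or CtbpDKO replicate 2 (adjusted p = 0.124). The genes lie on chromosome 1, Lefty2 at 180893108 to 180899107 and Lefty1 at 180935022 to 180938401, and are close paralogs. Reads that fit both could have been split by the counting, so the separate levels are uncertain to that extent.

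The intracellular inhibitors moved apart. Skil stood at 83.3 and 79.4 CPM in WT and at 31.5 and 32.7 CPM in CtbpDKO (log2 fold change -1.34 ± 0.10, adjusted p = 3.72e-07). Smad7 stood at 86.8 and 86.4 CPM in WT and at 156 and 128 CPM in CtbpDKO (log2 fold change 0.71 ± 0.12, adjusted p = 0.000479). Neither gene's groups overlapped, though the share of all genes whose groups did not overlap was not computed.

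The Id genes did not move as a set. Id1 stood at 16.6 and 20.0 CPM in WT and at 35.3 and 31.5 CPM in CtbpDKO, a 1.83-fold rise (adjusted p = 0.000124). Id2 fell from 10.3 and 12.1 CPM to 2.68 and 3.55 CPM (log2 fold change -1.84 ± 0.22, adjusted p = 3.51e-05). Id3 went from 10.1 and 9.36 CPM to 7.47 and 7.49 CPM, with groups apart but a log2 fold change of only -0.38 ± 0.13 (adjusted p = 0.0475). That Id3 call was lost with DESeq2 (adjusted p = 0.143), without the filter on low counts (0.116), with the 2 groups fitted alone (0.0647), and without any 1 of the 4 libraries (0.0809 to 0.232). Summed levels of other lineage markers differed between the groups: primitive endoderm 184 to 206 CPM in CtbpDKO against 75.6 to 90.3 CPM in WT (7 of 8 genes over 1 CPM in each), trophoblast 127 to 136 against 29.9 to 32.9 CPM (5 and 2 of 7, with Elf5 at 0 in WT), and 2-cell-like genes 18.1 to 20.6 against 0.228 to 0.436 CPM (4 and 0 of 7, with Usp17la, Tcstv1 and Tcstv3 at 0 in WT). Neural markers were lower, at 18.9 to 19.1 against 57.6 to 61.6 CPM (3 and 4 of 5). Primitive streak and mesoderm markers summed to 13.4 to 13.9 against 5.28 to 6.58 CPM (1 of 7 in each, with Fgf8 at 0 in CtbpDKO) and feeder fibroblast markers to 11.3 to 11.6 against 1.74 to 2.18 CPM (1 of 6 in each, with Postn and Lum at 0 in both groups and Col3a1 at 0 in WT). Their part in these results was not tested.

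**Figure D1:**
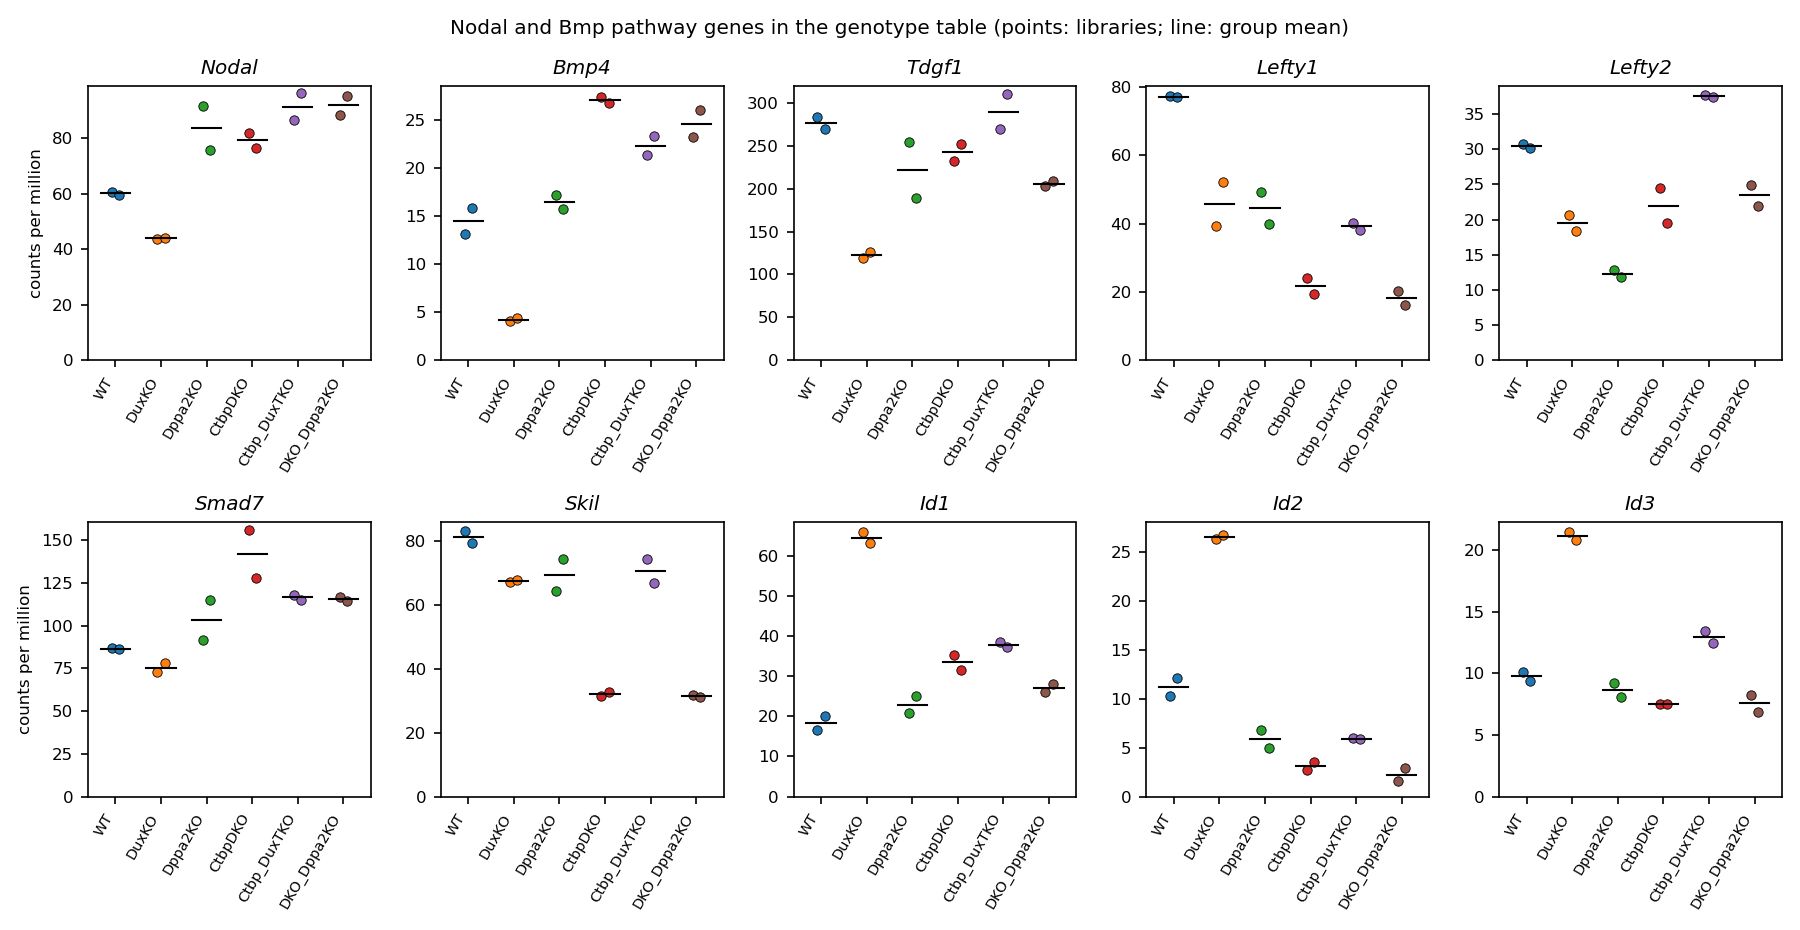
Level of each of the 10 genes in CPM (vertical axis, linear from 0) in the 6 groups of the genotype table; points are libraries and lines are group means. Skil and Lefty1 are low in CtbpDKO and DKO_Dppa2KO, and Bmp4 is low and Id1, Id2 and Id3 are high in DuxKO.

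Dux loss alone gave a different profile, with less Bmp4, Nodal, Tdgf1 and Lefty2 and more Id2 in both tables that measured it. Of the 10 genes, 3 were higher and 5 lower in DuxKO than in WT in the genotype table, where 17.5% of all genes tested were called, 7.94% higher and 9.56% lower. For the Pramel7 table it was 2 higher and 5 lower, where 16.7% were called, 7.76% higher and 8.91% lower. The same direction was called in both for 5 genes, 62.5% of the 8 calls of the genotype table and 71.4% of the 7 of the Pramel7 table: Nodal, Lefty2, Tdgf1 and Bmp4 lower, and Id2 higher. The share of all called genes with the same direction in both was not computed, so these shares cannot be called particular to the 10 genes. The median log2 fold change of the 10 genes was -0.36 in the genotype table and -0.49 in the Pramel7 table, against -0.012 and -0.0065 over all genes tested.

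Bmp4 was the lowest in DuxKO of any group in either table. Its DuxKO libraries stood at 4.12 and 4.36 CPM in the genotype table, against 13.2 and 15.9 CPM in WT (log2 fold change -1.78 ± 0.13, adjusted p = 2.08e-06). In the Pramel7 table they stood at 4.81 and 5.50 CPM, and the 4 WT libraries at 11.6, 10.2, 19.2 and 14.9 CPM (log2 fold change -1.43 ± 0.25, adjusted p = 0.00162). In neither table did a DuxKO library reach a WT library. Nodal was at 43.8 and 44.1 CPM in DuxKO of the genotype table (log2 fold change -0.45 ± 0.10, adjusted p = 0.0081). In the Pramel7 table it was at 38.1 and 35.2 CPM, below WT libraries at 61.2, 56.0, 48.1 and 40.9 CPM (log2 fold change -0.49 ± 0.15, adjusted p = 0.0397). The Nodal calls were the less secure. The first was lost without WT replicate 1 or either DuxKO library (adjusted p = 0.0549 to 0.0684). The call of the Pramel7 table was lost without WT replicate 3 (0.0577), WT replicate 4 (0.076), DuxKO replicate 3 (0.162) or DuxKO replicate 4 (0.271), with WT replicates 5 and 6 alone (0.0869), and with the 2 groups fitted alone (0.106).

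Tdgf1, the coreceptor gene, was lower in DuxKO too. It stood at 120 and 126 CPM in DuxKO of the genotype table, where WT stood at 284 and 269 CPM (log2 fold change -1.17 ± 0.12, adjusted p = 3.51e-05). The Pramel7 table had DuxKO libraries at 135 and 167 CPM and WT libraries between 215 and 262 CPM (log2 fold change -0.65 ± 0.14, adjusted p = 0.008). The call of the Pramel7 table was lost without DuxKO replicate 3 (adjusted p = 0.145). A pseudogene, Tdgf1-ps1, held 7.25 to 14.8 CPM in the genotype table and may share reads with Tdgf1, which leaves the Tdgf1 level uncertain to that extent.

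Lefty2 fell in DuxKO to 20.6 and 18.4 CPM in the genotype table (log2 fold change -0.64 ± 0.12, adjusted p = 0.00293). It fell in the Pramel7 table to 24.7 and 24.4 CPM, against WT libraries of 40.4 to 47.1 CPM (log2 fold change -0.87 ± 0.14, adjusted p = 0.00123). Lefty1 stood at 39.3 and 52.1 CPM in DuxKO of the genotype table (log2 fold change -0.75 ± 0.15, adjusted p = 0.00414), a call lost without DuxKO replicate 1 (adjusted p = 0.0642). In the Pramel7 table its WT libraries spread from 60.1 to 113 CPM and overlapped DuxKO at 69.5 and 59.6 CPM, and the change was not called (log2 fold change -0.49 ± 0.22, adjusted p = 0.156). WT replicates 3 and 4 (113 and 109 CPM) lay above replicates 5 and 6 (60.1 and 78.6 CPM). Against replicates 3 and 4 alone Lefty1 was lower in DuxKO (log2 fold change -0.83, adjusted p = 0.000244). So it was without WT replicate 5 (-0.67, adjusted p = 0.0235) and without the filter on low counts (-0.50, adjusted p = 0.0238). It was lower also with a replicate block (-0.79, adjusted p = 0.000777), whose numbers are not known to pair samples.

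Skil was called in the Pramel7 table alone, at 83.5 and 82.7 CPM in DuxKO and between 136 and 214 CPM in WT (log2 fold change -0.98 ± 0.16, adjusted p = 0.00137). In the genotype table it was at 67.2 and 68.0 CPM in DuxKO, with a log2 fold change of -0.27 ± 0.095 (adjusted p = 0.0687; 0.0281 with the 2 groups fitted alone). The difference between these 2 changes did not pass its own test (0.73 ± 0.24 on the log2 scale, adjusted p = 0.139), and passed without WT replicate 6 (0.58, adjusted p = 0.0356). Smad7 rose in DuxKO of the Pramel7 table, from WT libraries of 91.1 to 106 CPM to 161 and 154 CPM (log2 fold change 0.67 ± 0.10, adjusted p = 0.000783). In the genotype table it stood at 72.8 and 78.1 CPM in DuxKO and was not called (log2 fold change -0.20 ± 0.12, adjusted p = 0.271). The Smad7 change differed between the tables by -0.86 ± 0.16 on the log2 scale (adjusted p = 0.018), where 3.15% of all genes tested differed, 1.53% higher and 1.62% lower. Leaving out WT replicate 1 or 2 or any 1 of DuxKO replicates 1, 2, 3 and 4 ended that call (adjusted p = 0.0801 to 0.139).

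All 3 Id genes rose in DuxKO of the genotype table. Id1 stood at 65.8 and 63.0 CPM against 16.6 and 20.0 CPM in WT, a 3.52-fold difference (log2 fold change 1.82 ± 0.12, adjusted p = 8.85e-07). Id2 stood at 26.3 and 26.8 CPM against 10.3 and 12.1 CPM (log2 fold change 1.25 ± 0.20, adjusted p = 0.000818). Id3 stood at 21.5 and 20.8 CPM against 10.1 and 9.36 CPM (log2 fold change 1.12 ± 0.13, adjusted p = 6.49e-05). No DuxKO library overlapped a WT library for any of them, though the share of all genes without such overlap was not computed. In the same DuxKO libraries Bmp4 was low.

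In the Pramel7 table only Id2 of these was called. It stood at 34.2 and 39.3 CPM in DuxKO and at 14.5 to 19.0 CPM in WT (log2 fold change 1.12 ± 0.15, adjusted p = 0.000229). Id1 was at 76.0 and 87.6 CPM in DuxKO, within reach of WT libraries at 70.9 to 83.4 CPM (log2 fold change 0.085 ± 0.13, adjusted p = 0.711). Id3 was at 33.2 and 32.8 CPM, also within the WT range of 26.8 to 34.3 CPM (log2 fold change 0.18 ± 0.13, adjusted p = 0.384). The difference between the tables was 1.75 ± 0.20 on the log2 scale for Id1 (adjusted p = 0.0021) and 0.96 ± 0.20 for Id3 (adjusted p = 0.0278). The Id3 difference was lost without WT replicate 1 or 2 or any 1 of DuxKO replicates 1, 2, 3 and 4 (adjusted p = 0.11 to 0.163). For Id1 the WT libraries of the tables lay further apart, at 16.6 and 20.0 CPM in the genotype table and 70.9 to 83.4 CPM in the Pramel7 table, than the DuxKO libraries did. Neural markers summed to 79.4 to 82.2 CPM in DuxKO against 57.6 to 61.6 CPM in WT of the genotype table (4 of 5 over 1 CPM in each), and to 97.1 to 98.0 against 38.2 to 74.8 CPM in the Pramel7 table (4 of 5 in each). Primitive endoderm markers were lower in DuxKO of the genotype table, at 49.0 to 53.4 against 75.6 to 90.3 CPM (4 and 7 of 8), and higher in that of the Pramel7 table, at 52.3 to 54.0 against 21.2 to 25.4 CPM (5 and 3 of 8). Primitive streak and mesoderm markers were higher in the former, at 8.15 to 9.93 against 5.28 to 6.58 CPM (1 of 7 in each), and lower in the latter, at 13.4 to 18.2 against 25.1 to 41.5 CPM (3 and 4 of 7). Trophoblast markers reached 74.4 to 177 CPM in WT of the Pramel7 table and 29.9 to 32.9 CPM in WT of the genotype table, and 77.0 to 80.6 and 39.8 to 43.9 CPM in DuxKO. The part of these markers in the results was not tested.

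**Figure D2:**
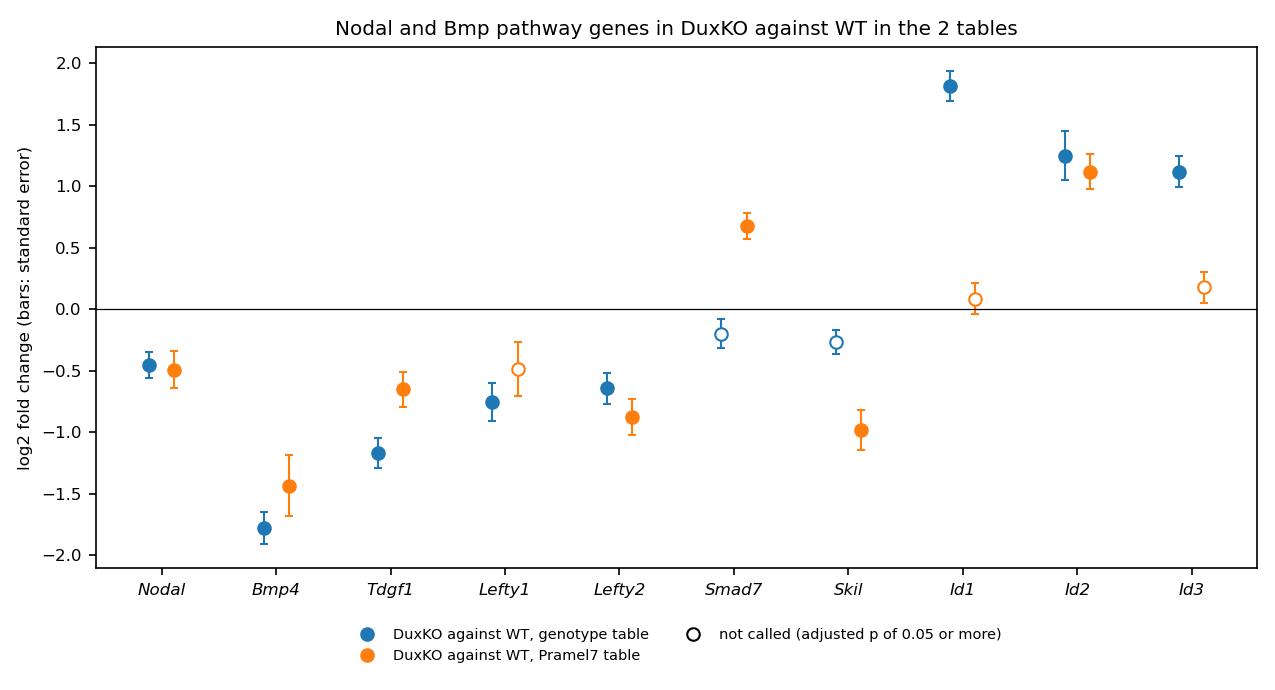
Log2 fold change of DuxKO against WT (vertical axis; bars are standard errors) for the 10 genes, in the genotype table (2 WT libraries) and the Pramel7 table (4 WT libraries); filled points passed the test and open points did not. Id1 stands at 1.82 in the genotype table and at 0.085 in the Pramel7 table, while Bmp4 and Id2 stand on the same side of 0 in both.

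Removing Dux from CtbpDKO cells raised 5 of the 10 genes and lowered none, where 8.15% of all genes tested were called, 3.6% higher and 4.54% lower. The genes were Lefty1, Lefty2, Skil, Id2 and Id3, and the median log2 fold change was 0.52 over the 10 genes and 0.0021 over all genes tested. Skil stood at 74.6 and 66.9 CPM in Ctbp_DuxTKO, against 31.5 and 32.7 CPM in CtbpDKO (log2 fold change 1.14 ± 0.10, adjusted p = 2.65e-05). These libraries lay just below the WT libraries, at 83.3 and 79.4 CPM. Lefty2 reached 37.7 and 37.5 CPM, above every other group of the table (log2 fold change against CtbpDKO 0.78 ± 0.12, adjusted p = 0.00204). Lefty1 reached 40.3 and 38.3 CPM, still below WT (log2 fold change against CtbpDKO 0.85 ± 0.16, adjusted p = 0.00508). Leaving out CtbpDKO replicate 2 ended the Lefty1 call (adjusted p = 0.057). Id3 rose to 13.4 and 12.4 CPM (log2 fold change 0.79 ± 0.13, adjusted p = 0.00294). Id2 stood at 5.98 and 5.87 CPM (log2 fold change 0.92 ± 0.23, adjusted p = 0.0247), a call lost without CtbpDKO replicate 1 (0.19), Ctbp_DuxTKO replicate 1 (0.106) or Ctbp_DuxTKO replicate 2 (0.0675). Bmp4 was not called here, at 21.4 and 23.3 CPM (log2 fold change -0.28 ± 0.12, adjusted p = 0.181), although it was low in DuxKO.

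Set against DuxKO, loss of Ctbp moved 8 genes: 5 higher and 3 lower in Ctbp_DuxTKO, where 41% of all genes tested were called, 21.4% higher and 19.6% lower. Bmp4 showed the largest change, from 4.12 and 4.36 CPM in DuxKO to 21.4 and 23.3 CPM, a 5.28-fold rise (log2 fold change 2.40 ± 0.13, adjusted p = 1.87e-08). Nodal rose 2.08-fold to 86.6 and 96.2 CPM (adjusted p = 3.43e-06). Tdgf1 rose 2.36-fold to 270 and 310 CPM (adjusted p = 4.6e-06). Both ligand genes and the coreceptor gene, low in DuxKO, were at or above the WT level once Ctbp was gone too. Lefty2 rose 1.93-fold (adjusted p = 4.38e-05) and Smad7 1.54-fold (adjusted p = 0.000804). The 3 Id genes fell, with log2 fold changes of -2.16 for Id2 (adjusted p = 3.36e-06), -0.77 for Id1 (adjusted p = 0.000176) and -0.71 for Id3 (adjusted p = 0.000581). The calls for Nodal, Tdgf1, Id2 and Bmp4 held under each alternative tried, and those for Lefty2, Smad7, Id1 and Id3 under each but a 2-fold minimum.

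The change after Ctbp loss differed between the WT and DuxKO backgrounds for 7 of the 10 genes by the test of the interaction. This was the change in the Dux knockout background minus that in the Dux-bearing one. The test called 19.5% of all genes tested, 9.82% higher and 9.64% lower. Duxf3 held 0 or 1 count in WT and 0 in DuxKO, and a difference between the lines cannot be told apart from Dux loss. The interaction was 1.61 ± 0.22 on the log2 scale for Lefty1 (adjusted p = 0.000265). Its log2 fold change with Ctbp loss was -1.83 in the WT background and -0.22 ± 0.15 (adjusted p = 0.272) in the DuxKO background. Bmp4 gave 1.50 ± 0.18 (adjusted p = 9.7e-05), Tdgf1 1.43 ± 0.17 (adjusted p = 0.00012), Lefty2 1.42 ± 0.17 (adjusted p = 0.000119) and Skil 1.41 ± 0.14 (adjusted p = 2.01e-05). Nodal gave the smallest positive value called, 0.66 ± 0.14 (adjusted p = 0.00647). For Id1 the interaction was -1.64 ± 0.17 (adjusted p = 3.06e-05): Id1 rose with Ctbp loss in the WT background and fell in the DuxKO background. Id1 averaged 64.4 CPM in DuxKO and 18.3 CPM in WT. In Ctbp_DuxTKO and CtbpDKO it averaged 37.8 and 33.4 CPM, a difference that was not called. The rise in DuxKO did not recur in the Pramel7 table (81.8 against 77.2 CPM in WT, not called). Id2, Id3 and Smad7 had no called interaction (adjusted p = 0.494, 0.227 and 0.761). Primitive endoderm markers summed to 511 to 532 CPM in Ctbp_DuxTKO (8 of 8 over 1 CPM), 184 to 206 CPM in CtbpDKO and 49.0 to 53.4 CPM in DuxKO (4 of 8 over 1 CPM). In the same order, neural markers summed to 25.2 to 25.6, 18.9 to 19.1 and 79.4 to 82.2 CPM. Trophoblast markers summed to 126 to 131, 127 to 136 and 39.8 to 43.9 CPM. The 2-cell-like genes summed to 0 to 0.130 CPM in Ctbp_DuxTKO and 18.1 to 20.6 CPM in CtbpDKO. The part of these markers in the results was not tested.

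**Figure D3:**
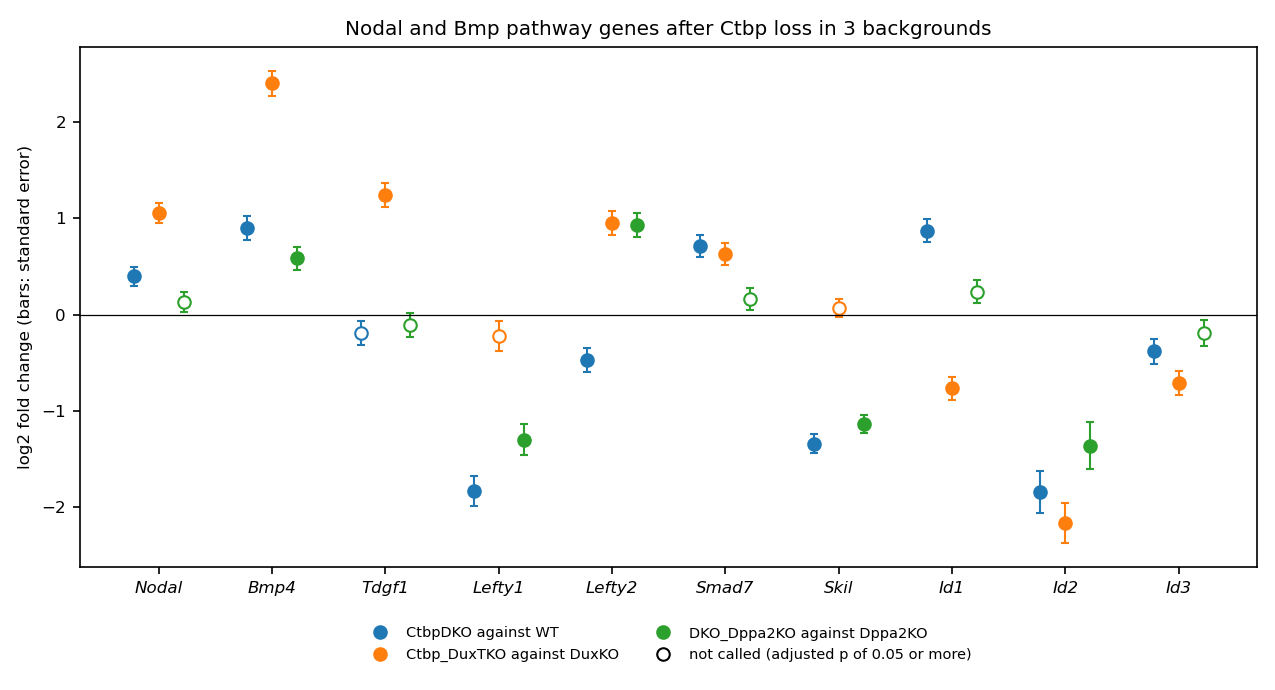
Log2 fold change after loss of Ctbp (vertical axis; bars are standard errors) for the 10 genes in 3 backgrounds: CtbpDKO against WT, Ctbp_DuxTKO against DuxKO and DKO_Dppa2KO against Dppa2KO; filled points passed the test and open points did not. Skil and Lefty1 are low without Ctbp in the WT and Dppa2KO backgrounds and near 0 in the DuxKO background, where Bmp4 stands at 2.40.

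Dppa2 loss in cells with Ctbp raised Nodal and lowered Lefty1, Lefty2 and Id2, so that 1 gene was higher and 3 lower, where 16.4% of all genes tested were called, 7.67% higher and 8.69% lower. The median log2 fold change was -0.20 over the 10 genes and -0.018 over all genes tested. Lefty2 fell the furthest, to 12.8 and 11.8 CPM from WT libraries of 30.8 and 30.2 CPM (log2 fold change -1.31 ± 0.12, adjusted p = 2.9e-05). Lefty1 fell to 49.3 and 39.8 CPM (log2 fold change -0.79 ± 0.15, adjusted p = 0.00376). Nodal, the agonist of the pair, was at 91.6 and 75.9 CPM in Dppa2KO (log2 fold change 0.48 ± 0.10, adjusted p = 0.00679), a call lost without WT replicate 2 (0.0546) or Dppa2KO replicate 1 (0.0762). Id2 was at 6.77 and 5.02 CPM (log2 fold change -0.92 ± 0.21, adjusted p = 0.00908), lost without WT replicate 2 (0.0735) or Dppa2KO replicate 2 (0.0751). Primitive endoderm markers were lower in Dppa2KO, at 41.6 to 52.7 against 75.6 to 90.3 CPM in WT (6 and 7 of 8 over 1 CPM), as were trophoblast markers, at 19.6 to 22.5 against 29.9 to 32.9 CPM (2 of 7 in each, with Elf5 at 0 in both), and neural markers, at 38.8 to 41.5 against 57.6 to 61.6 CPM (4 of 5 in each). Their part was not tested.

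In cells without Ctbp, further loss of Dppa2 called none of the 10 genes, where 15.4% of all genes tested were called, 5.75% higher and 9.67% lower. By edgeR, 2 of the 10 (Smad7 and Id1) had an unadjusted p under 0.05, and DESeq2 called 0. The share of all genes under that unadjusted p was not computed. Skil stood at 31.9 and 31.2 CPM in DKO_Dppa2KO, level with CtbpDKO at 31.5 and 32.7 CPM (log2 fold change -0.026 ± 0.097, adjusted p = 0.894). Lefty1 stood at 20.2 and 16.1 CPM, overlapping CtbpDKO (log2 fold change -0.26 ± 0.16, adjusted p = 0.306). Ctbp_DuxTKO and DKO_Dppa2KO were not compared directly. Primitive endoderm markers summed to 60.4 to 66.9 CPM in DKO_Dppa2KO (4 of 8 over 1 CPM) against 184 to 206 CPM in CtbpDKO (7 of 8), and the 2-cell-like genes were all 7 at 0 in DKO_Dppa2KO, against a sum of 18.1 to 20.6 CPM in CtbpDKO. Feeder fibroblast markers summed to 4.01 to 4.62 against 11.3 to 11.6 CPM (1 of 6 in each), and trophoblast markers overlapped, at 130 to 136 and 127 to 136 CPM (3 and 5 of 7).

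Set against Dppa2KO, loss of Ctbp moved 5 genes, 2 higher and 3 lower in DKO_Dppa2KO, where 30.4% of all genes tested were called, 15.2% higher and 15.2% lower. Skil fell by 1.14 ± 0.10 on the log2 scale (adjusted p = 1.77e-06), Lefty1 by 1.30 ± 0.16 (adjusted p = 4.5e-05) and Id2 by 1.36 ± 0.24 (adjusted p = 0.000858). Id2 had few reads there, 32 and 69 counts. Lefty2 and Bmp4 rose, Lefty2 from 12.8 and 11.8 CPM to 25.0 and 21.9 CPM (log2 fold change 0.93 ± 0.13, adjusted p = 0.000101) and Bmp4 from 17.2 and 15.8 CPM to 23.3 and 26.1 CPM (log2 fold change 0.58 ± 0.12, adjusted p = 0.00242). The interaction of Ctbp and Dppa2 loss, which called 8.23% of all genes tested, 3.23% higher and 5% lower, was called for Lefty2 (1.40 ± 0.18 on the log2 scale, adjusted p = 0.000559). It was also called for Id1 (-0.63 ± 0.17, adjusted p = 0.0364), but that call was lost without WT replicate 1 (0.142), Dppa2KO replicate 2 (0.124), CtbpDKO replicate 1 (0.135), DKO_Dppa2KO replicate 1 (0.113) or DKO_Dppa2KO replicate 2 (0.0732), with only the groups compared (0.0718) and with a replicate block (0.0507). Smad7 (-0.55 ± 0.16, adjusted p = 0.0544) passed without Dppa2KO replicate 1 (0.0195) or CtbpDKO replicate 2 (0.0331), without the filter (0.0082) and with DESeq2 (0.02). Trophoblast markers summed to 130 to 136 CPM in DKO_Dppa2KO (3 of 7 over 1 CPM) against 19.6 to 22.5 CPM in Dppa2KO (2 of 7), primitive endoderm markers to 60.4 to 66.9 against 41.6 to 52.7 CPM (4 and 6 of 8), and primitive streak and mesoderm markers to 17.5 to 18.8 against 4.57 to 4.62 CPM (1 of 7 in each). Neural markers were lower, at 18.7 to 20.4 against 38.8 to 41.5 CPM (4 of 5 in each). The part of these markers was not tested in any of the Dppa2 comparisons.

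Pramel7 overexpression raised Lefty2, Bmp4, Nodal and Smad7 and lowered none of the 10 genes, where 19.9% of all genes tested were called, 11% higher and 8.9% lower. The median log2 fold change was 0.062 over the 10 genes and -0.013 over all genes tested. Lefty2 stood at 98.4 and 75.7 CPM in P7OE, above WT libraries of 40.4 to 47.1 CPM (log2 fold change 0.95 ± 0.13, adjusted p = 0.000377). Bmp4 stood at 27.7 and 30.4 CPM, above WT libraries of 10.2 to 19.2 CPM (log2 fold change 1.05 ± 0.21, adjusted p = 0.00424). Both groups were clear of WT. Nodal stood at 77.7 and 78.3 CPM (log2 fold change 0.60 ± 0.14, adjusted p = 0.0109), a call lost without P7OE replicate 1 (0.0822) or 2 (0.0931). Smad7 stood at 136 and 127 CPM (log2 fold change 0.42 ± 0.10, adjusted p = 0.0143), and its call was lost without P7OE replicate 1 (0.156) or 2 (0.0655), without the filter on low counts (0.0625) and with the 2 groups fitted alone (0.0632). Lefty1 at 93.5 and 88.0 CPM fell among the WT libraries (log2 fold change 0.0065, adjusted p = 0.988). Against WT replicates 3 and 4 alone it was lower, with a log2 fold change of -0.33 (adjusted p = 0.0474).

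In Dux knockout cells the same overexpression moved 9 of the 10 genes, 5 higher and 4 lower in DuxKO_P7OE than in DuxKO, where 21.4% of all genes tested were called, 11.6% higher and 9.83% lower. The median log2 fold change was 0.50 over the 10 genes and -0.028 over all genes tested. Lefty2 rose 4.64-fold, from 24.7 and 24.4 CPM to 127 and 101 CPM (log2 fold change 2.21 ± 0.17, adjusted p = 3.02e-06), the highest level it had in the table. Bmp4 rose from 4.81 and 5.50 CPM to 21.0 and 14.9 CPM (log2 fold change 1.80 ± 0.28, adjusted p = 0.000735). Nodal rose from 38.1 and 35.2 CPM to 83.2 and 81.8 CPM (log2 fold change 1.17 ± 0.17, adjusted p = 0.000521). The ligand genes that were low without Dux were thus at or above WT levels under overexpression.

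The Id genes and Smad7 went the other way. Id2 fell from 34.2 and 39.3 CPM in DuxKO to 10.4 and 13.7 CPM in DuxKO_P7OE (log2 fold change -1.61 ± 0.18, adjusted p = 8.33e-05). Id3 fell from 33.2 and 32.8 CPM to 17.2 and 17.2 CPM (log2 fold change -0.94 ± 0.15, adjusted p = 0.000991). Smad7 fell from 161 and 154 CPM to 101 and 106 CPM (log2 fold change -0.60 ± 0.12, adjusted p = 0.00463). In none of these did the groups overlap, though how many of all genes had no overlap was not computed. Calls that a single library could end were those of Lefty1 (log2 fold change 1.06 ± 0.25, adjusted p = 0.0102; 0.0981 without DuxKO replicate 4 and 0.0841 without DuxKO_P7OE replicate 1), Skil (0.77 ± 0.18, adjusted p = 0.0105; 0.0607 and 0.0788 without DuxKO replicates 3 and 4, 0.0731 without DuxKO_P7OE replicate 2) and Id1 (-0.56 ± 0.15, adjusted p = 0.018; 0.147 without DuxKO replicate 4 and 0.143 without DuxKO_P7OE replicate 2).

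The response to Pramel7 overexpression differed between the WT and DuxKO backgrounds for 5 genes by the test of the interaction. That test called 7.5% of all genes tested, 4.27% higher and 3.23% lower. The response was higher in the DuxKO background for Lefty2 (1.26 ± 0.21 on the log2 scale, adjusted p = 0.00363). It was lower there for Id2 (-1.60 ± 0.24, adjusted p = 0.00152) and Smad7 (-1.01 ± 0.16, adjusted p = 0.00256). Skil gave 1.09 ± 0.24 (adjusted p = 0.0167) and Id3 -0.70 ± 0.20 (adjusted p = 0.0477). These calls were lost without DuxKO replicate 3 (0.0668 for Skil, 0.138 for Id3), DuxKO replicate 4 (0.0798, 0.14), P7OE replicate 1 (0.0775, 0.141), P7OE replicate 2 (0.0673, 0.126) or DuxKO_P7OE replicate 2 (0.0718, 0.128). The Id3 call was lost also with relative log expression factors (0.0528), without the filter on low counts (0.101), with only the groups compared (0.0758), and without DuxKO_P7OE replicate 1 (0.128), WT replicate 3 (0.0821) or WT replicate 4 (0.0696). Lefty1, at 1.05 ± 0.33 (adjusted p = 0.0736), passed without WT replicate 5 (0.0134) or WT replicate 6 (0.0498), without the filter (0.000889) and with DESeq2 (0.0276), and Nodal, at 0.57 ± 0.22 (adjusted p = 0.147), without WT replicate 6 (0.0296). Set against P7OE, DuxKO_P7OE called none of the 10 genes by edgeR, and 0.0298% of all genes tested (0% higher and 0.0298% lower). At an unadjusted p under 0.05, 8 of the 10 passed, and DESeq2 called 0 of the 10. The share of all genes under that unadjusted p was not computed, so the 8 cannot be set against it. The libraries of DuxKO_P7OE were the shallowest, and this comparison rests on 2 libraries a side. The transgene itself was higher there, at 49.3 and 56.7 CPM of Pramel7 against at most 26.2 CPM in P7OE. Primitive endoderm markers summed to 290 to 313 CPM in P7OE and 220 to 258 CPM in DuxKO_P7OE (7 of 8 over 1 CPM in each), against 21.2 to 25.4 CPM in WT (3 of 8) and 52.3 to 54.0 CPM in DuxKO (5 of 8). Trophoblast markers were lower, at 39.6 to 46.0 CPM in P7OE and 35.9 to 39.1 CPM in DuxKO_P7OE (4 and 3 of 7) against 74.4 to 177 CPM in WT and 77.0 to 80.6 CPM in DuxKO (5 and 4 of 7). Primitive streak and mesoderm markers were at 8.76 to 9.36 and 6.97 to 10.1 CPM (1 of 7 in each) against 25.1 to 41.5 and 13.4 to 18.2 CPM (4 and 3 of 7). The 2-cell-like genes summed to 7.30 to 8.71 CPM in P7OE (3 of 7) and 0.423 to 1.14 CPM in WT (0 of 7). Neural markers summed to 46.0 to 46.7 CPM in DuxKO_P7OE and 97.1 to 98.0 CPM in DuxKO (4 of 5 in each). The part of these markers and of the transgene level was not tested.

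**Figure D4:**
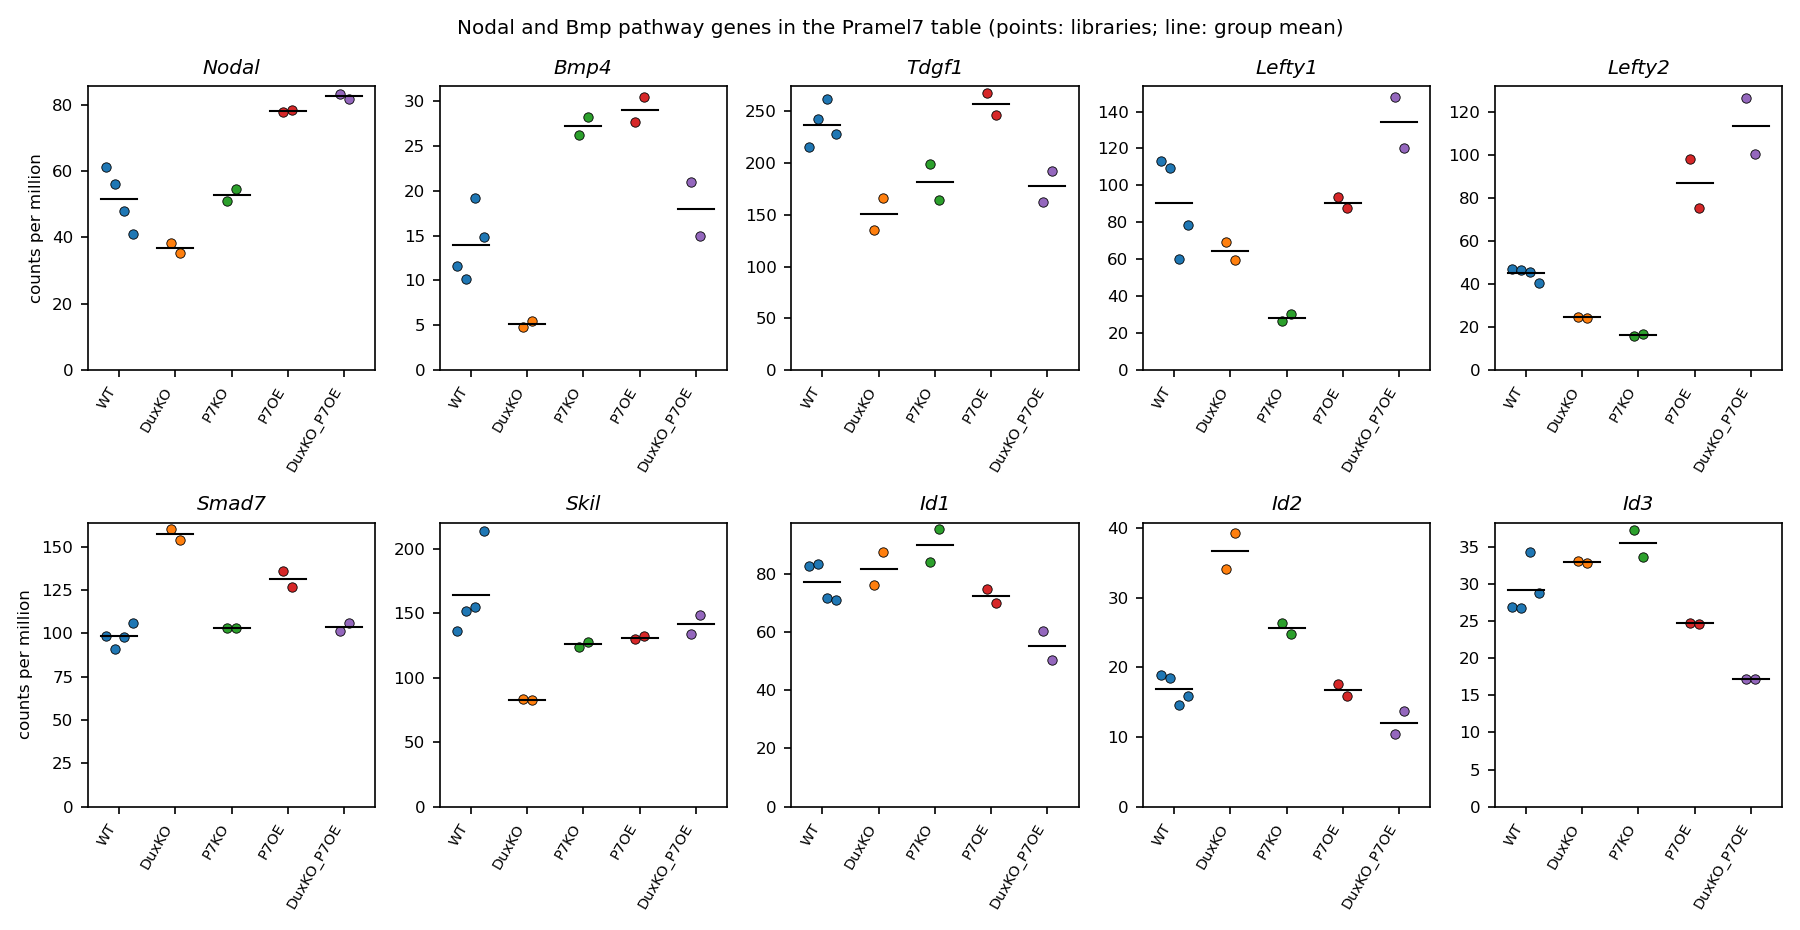
Level of each of the 10 genes in CPM (vertical axis, linear from 0) in the 5 groups of the Pramel7 table; points are libraries and lines are group means. Lefty2 is highest in P7OE and DuxKO_P7OE and lowest in P7KO, and the 4 WT libraries of Lefty1 spread from 60.1 to 113.

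Both Lefty genes were lower and Id2 and Bmp4 higher in P7KO than in WT, where 9.48% of all genes tested were called, 3.93% higher and 5.55% lower. The loss of Pramel7 itself could not be checked, since WT held almost no reads of it. The median log2 fold change was 0.049 over the 10 genes and 0.012 over all genes tested. Lefty1 stood at 26.4 and 30.5 CPM in P7KO, below every WT library (60.1 to 113 CPM, log2 fold change -1.67 ± 0.23, adjusted p = 0.000657). Lefty2 stood at 15.8 and 17.0 CPM, below WT libraries of 40.4 to 47.1 CPM (log2 fold change -1.45 ± 0.15, adjusted p = 7.71e-05). Nodal, which induces both, was at 51.0 and 54.6 CPM and within the WT range (log2 fold change 0.034 ± 0.15, adjusted p = 0.916). Bmp4 stood at 26.2 and 28.2 CPM (log2 fold change 0.96 ± 0.21, adjusted p = 0.0124), lost without P7KO replicate 1 (0.0883) or 2 (0.11). Id2 stood at 26.4 and 24.7 CPM (log2 fold change 0.59 ± 0.15, adjusted p = 0.023), lost without P7KO replicate 1 (0.258) or 2 (0.114), without WT replicate 5 (0.0503) and with the 2 groups fitted alone (0.0719). Primitive streak and mesoderm markers summed to 9.08 to 9.47 CPM in P7KO (2 of 7 over 1 CPM) and 25.1 to 41.5 CPM in WT (4 of 7), and trophoblast markers to 37.0 to 38.5 CPM (2 of 7, Elf5 at 0) and 74.4 to 177 CPM (5 of 7). Their part was not tested.

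In the time course, Ctbp2 was low at day 0 (58.9 and 59.3 CPM), high at day 3 (544 and 573 CPM) and day 9 (310 and 296 CPM), and low again at day 12 (49.4 and 44.7 CPM) and day 18 (52.4 and 54.7 CPM). Smad7 was high and Id1 low on the 2 days when Ctbp2 was high, and both stood near the day 0 level at day 12. No group without doxycycline labels was followed over the days. Effects of doxycycline or of days in culture thus cannot be told apart from those of Ctbp2. Lefty1 was high at day 3 and at day 18, and Lefty2 was lowest at day 9 and highest at day 18. Nodal, Tdgf1, Skil, Id2 and Id3 were called in none of the 6 comparisons of days by edgeR. At an unadjusted p under 0.05 each of these but Id2 passed in 1 or more, and DESeq2 called Tdgf1 lower at day 3 (adjusted p = 0.0255). How many of all genes passed at that unadjusted p was not computed.

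Id1 was lowest at day 9, not at day 3, when Ctbp2 was highest. It stood at 61.1 and 66.9 CPM at day 0, 40.9 and 41.4 CPM at day 3, 30.2 and 25.8 CPM at day 9, 71.0 and 68.3 CPM at day 12, and 54.9 and 63.9 CPM at day 18. It was lower at day 9 than at day 0 (log2 fold change -1.19 ± 0.11, adjusted p = 2.87e-05) and higher at day 12 than at day 9 (1.31 ± 0.11, adjusted p = 3.02e-05). Both calls held without any 1 library. At day 3 it was lower than at day 0 by 0.64 ± 0.11 (log2 fold change -0.64, adjusted p = 0.00539), a call lost without day 3 replicate 1 (0.0585). Day 18 against day 0 was not called (log2 fold change -0.11 ± 0.11, adjusted p = 0.756). In the genotype table Id1 was higher in CtbpDKO than in WT (means 33.4 and 18.3 CPM). It was lower in Ctbp_DuxTKO than in DuxKO (37.8 and 64.4 CPM), and was not called in DKO_Dppa2KO against Dppa2KO (27.0 and 22.9 CPM).

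Smad7 stood at 117 and 119 CPM at day 0, 184 and 174 CPM at day 3, 201 and 194 CPM at day 9, 121 and 129 CPM at day 12, and 152 and 141 CPM at day 18. It was higher at day 3 than at day 0 (log2 fold change 0.60 ± 0.10, adjusted p = 0.004) and at day 9 than at day 0 (0.74 ± 0.10, adjusted p = 0.000529). It was lower at day 12 than at day 9 (-0.66 ± 0.10, adjusted p = 0.00255), a call lost without day 12 replicate 1 (0.0504). The libraries of days 3 and 9 lay above all others. From day 3 to day 9, between which Ctbp2 was at 544 and 573 and then at 310 and 296 CPM, Smad7 was not called (0.14 ± 0.10, adjusted p = 0.634). At day 18 both libraries lay above those of day 0, a difference that was not called (0.32 ± 0.10, unadjusted p = 0.00741, adjusted p = 0.206). In the genotype table the order was the other way, with Smad7 higher in CtbpDKO, without Ctbp, than in WT.

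The Lefty genes changed on different days. Lefty1 stood at 29.1 and 30.8 CPM at day 0, 54.3 and 47.4 CPM at day 3, 26.9 and 29.9 CPM at day 9, 22.2 and 22.0 CPM at day 12, and 36.3 and 55.8 CPM at day 18. It was higher at day 3 than at day 0 (log2 fold change 0.76 ± 0.16, adjusted p = 0.0156), a call lost without day 0 replicate 1 (0.11), day 0 replicate 2 (0.0679) or day 3 replicate 1 (0.149). It was higher at day 18 than at day 12 (1.07 ± 0.16, adjusted p = 0.0075), a call lost without day 12 replicate 1 (0.0791) or 2 (0.0892) and with the 2 days fitted alone (0.078). The 2 libraries of day 18 lay far apart. Lefty2 stood at 50.6 and 39.1 CPM at day 0, 36.8 and 38.7 CPM at day 3, 25.0 and 24.1 CPM at day 9, 39.1 and 34.5 CPM at day 12, and 68.0 and 82.0 CPM at day 18. Its fall from day 0 to day 9 held without any 1 library (log2 fold change -0.87 ± 0.14, adjusted p = 0.0014). It was higher at day 18 than at day 12 (1.03 ± 0.13, adjusted p = 0.00253), a call lost without day 12 replicate 2 (0.0533). At day 18 it was above day 0 (0.74 ± 0.13, adjusted p = 0.023), a call lost without day 0 replicate 2 (0.116) or day 18 replicate 2 (0.0802) and with the 2 days fitted alone (0.152). From day 9 to day 12 it rose by 0.58 ± 0.14 (adjusted p = 0.0293), a call lost without any 1 of those 4 libraries (0.0992 to 0.249). Primitive endoderm markers summed to 141 to 180 CPM at day 0 (7 of 8 over 1 CPM), 94.6 to 97.7 CPM at day 9 (6 of 8) and 316 to 326 CPM at day 18 (8 of 8), low and high on the same days as Lefty2. Trophoblast markers summed to 129 to 140 CPM at day 0 (5 of 7), 74.8 to 77.8 CPM at day 3 (5 of 7, with Elf5 at 0) and 160 to 170 CPM at day 18 (4 of 7). The 2-cell-like genes were lower at days 9 and 12, at 3.62 to 5.67 and 5.08 to 5.25 CPM (1 of 7 in each), than at day 0, at 21.6 to 26.9 CPM (5 of 7). Their part was not tested.

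Of the 10 genes, 2 were called higher and 1 lower at day 3 than at day 0, where 4.99% of all genes tested were called, 2.41% higher and 2.59% lower. From day 0 to day 9 it was 1 higher and 2 lower, where 7.34% were called, 3.6% higher and 3.73% lower. From day 9 to day 12 it was 2 higher and 1 lower, where 3.84% were called, 1.87% higher and 1.97% lower. From day 12 to day 18 it was 2 higher and none lower, where 0.82% were called, 0.64% higher and 0.18% lower, and from day 0 to day 18 1 higher, where 0.514% were called, 0.359% higher and 0.155% lower. Between days 3 and 9, where 1.12% were called, 0.524% higher and 0.592% lower, Lefty1, Lefty2 and Id1 were lower and Bmp4 higher (log2 fold changes -0.84, -0.62, -0.55 and 0.58, adjusted p = 0.026, 0.0448, 0.0344 and 0.0344). Without any 1 of those 4 libraries none of these 4 calls remained (adjusted p = 0.0513 to 0.281). Over the 6 comparisons the median log2 fold change of the 10 genes lay between -0.18 and 0.16, and that of all genes tested between -0.0081 and 0.0020.

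Skil, which stood apart in CtbpDKO of the genotype table, was not called over the days. It ran from 57.7 to 77.3 CPM over the 10 libraries, with 0 calls over the 6 comparisons by edgeR, 1 at an unadjusted p under 0.05 (day 9 against day 3) and 0 by DESeq2. At day 0 Ctbp2 was low and Ctbp1 held 1 and 2 counts, as in CtbpDKO. Skil stood there at 69.0 and 67.4 CPM, while in CtbpDKO of the genotype table it stood at 31.5 and 32.7 CPM. The tables were counted apart, so this gap between them was not tested. Id2 was low on every day, from 4.06 to 6.75 CPM.

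**Figure D5:**
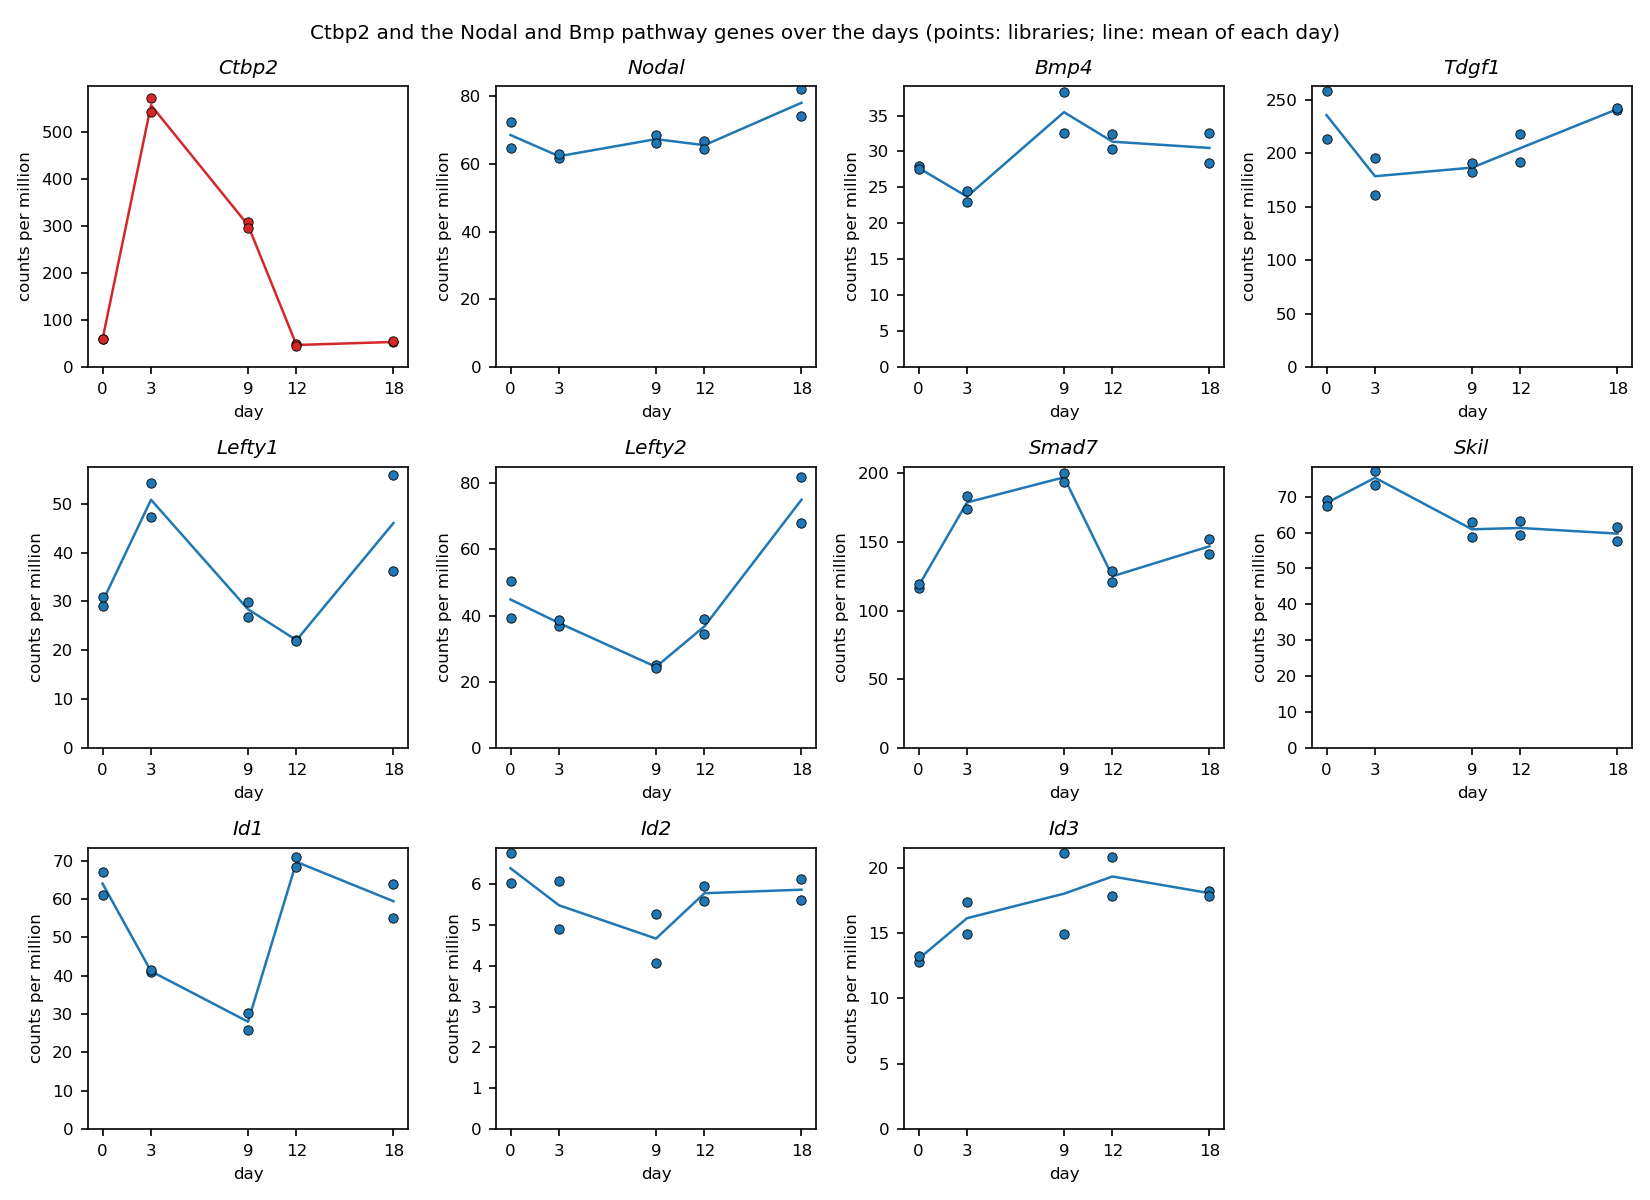
Level of Ctbp2 and of the 10 genes in CPM (vertical axis, linear from 0) against day (horizontal axis) in the time course; points are libraries and lines join the mean of each day. Smad7 is high and Id1 low on days 3 and 9, when Ctbp2 is high, and Lefty2 is lowest on day 9 and highest on day 18.

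The wider pathways gave the following picture, for which no alternative was computed gene by gene. Of 83 other genes of the pathways (ligands, receptors, transducers, inhibitors and targets), 68 could be tested in the genotype table, 73 in the Pramel7 table and 66 in the time course. Beside each count stands the share of the tested pathway genes it makes up, and then the share of all genes tested that was called in that comparison. In CtbpDKO against WT, 15 of the 68 were higher and 12 lower (39.7%, over all genes 26.1%), and their median log2 fold change was -0.066, against 0.0073 over all genes. Over the 18 comparisons of groups the median of the pathway genes lay between -0.217 and 0.177 and that of all genes tested between -0.031 and 0.041. Higher were the Bmp target Hand1 (3.72 against 0.185 CPM, adjusted p = 0.000839) and the ligand gene Tgfb1 (7.15 against 1.42 CPM, adjusted p = 7.43e-06). Lower were the activin antagonist Fst (0.777 against 3.95 CPM, adjusted p = 0.000179), Fstl1, a secreted follistatin-like protein (24.1 against 59.7 CPM, adjusted p = 1.92e-06), and the fourth Id gene, Id4 (1.85 against 4.56 CPM, adjusted p = 0.00301). Hand1 is also on the trophoblast list.

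In DuxKO against WT, 13 of 68 rose and 10 fell in the genotype table (33.8%, over all genes 17.5%) and 16 of 73 rose and 9 fell in the Pramel7 table (34.2%, over all genes 16.7%). Tgfb2, a ligand gene, rose in both (log2 fold change 2.67 and 1.80, adjusted p = 0.0201 and 0.0063). Removing Dux from CtbpDKO cells raised 8 of 68 and lowered 1 (13.2%, over all genes 8.15%). The latter was Tbx3 (-0.39, adjusted p = 0.0153). Foxa2, a target of Nodal that is also on the primitive endoderm list, rose there (1.89, adjusted p = 0.0177). Ctbp_DuxTKO against DuxKO had 19 of 68 higher and 15 lower (50%, over all genes 41%). Fst was lower there (-1.85, adjusted p = 0.00027). In Dppa2KO against WT 6 of 68 rose and 8 fell (20.6%, over all genes 16.4%), and Foxh1, the DNA-binding partner of the Nodal Smads, was among the latter (17.4 against 32.8 CPM, adjusted p = 0.000534), as was the receptor gene Tgfbr1 (10.6 against 21.7 CPM, adjusted p = 0.000116). In DKO_Dppa2KO Foxh1 stood at 105 CPM, 6.04-fold above Dppa2KO (adjusted p = 2.18e-08), in a comparison with 13 of 68 higher and 10 lower (33.8%, over all genes 30.4%). DKO_Dppa2KO against CtbpDKO had 6 higher and 9 lower (22.1%, over all genes 15.4%).

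Under Pramel7 overexpression 13 of 73 rose and 6 fell (26%, over all genes 19.9%). The mesoderm gene T fell from 15.6 to 0.471 CPM (adjusted p = 2.82e-06), and the Bmp target Tbx3 rose from 40.5 to 122 CPM (adjusted p = 0.0001). In DuxKO_P7OE against DuxKO 11 rose and 19 fell (41.1%, over all genes 21.4%), with Eng, a TGF-beta coreceptor gene, among the former (39.7 against 9.45 CPM, adjusted p = 0.000106) and Tgfb2 among the latter (0.0917 against 4.77 CPM, adjusted p = 0.000288). In P7KO 4 rose and 9 fell (17.8%, over all genes 9.48%). T (1.22 against 15.6 CPM, adjusted p = 1.73e-05) was among those that fell and Id4 (14.6 against 4.57 CPM, adjusted p = 3.92e-05) among those that rose. T was also lower in DuxKO than in the same WT libraries (2.40 CPM, adjusted p = 5.44e-05) and averaged 0.709 CPM in DuxKO_P7OE. Its mean was thus higher in WT than in every other group of the Pramel7 table. Over the days, the counts higher and lower of 66 were 2 and 5 at day 3 against day 0 (10.6%, over all genes 4.99%), 7 and 2 at day 9 against day 0 (13.6%, over all genes 7.34%), and 1 and 0 at day 9 against day 3 (1.52%, over all genes 1.12%). They were 2 and 0 at day 12 against day 9 (3.03%, over all genes 3.84%), 0 and 2 at day 18 against day 12 (3.03%, over all genes 0.82%), and 1 and 0 at day 18 against day 0 (1.52%, over all genes 0.514%). The Nodal target Eomes fell from 18.2 CPM at day 0 to 7.38 CPM at day 3 (adjusted p = 0.000155) and rose from 10.8 CPM at day 9 to 20.4 CPM at day 12 (adjusted p = 0.00222), and Tbx3 reached 345 CPM at day 18 against 178 CPM at day 0 (adjusted p = 0.00301).

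Across the 16 groups of the 3 tables, each table centred on its own mean, the 10 genes fell into no single pattern. Pearson's r of mean log2 CPM was 0.82 between Nodal and Bmp4 and 0.80 between Id2 and Id3, and it was -0.80 between Nodal and Id2 and -0.77 between Bmp4 and Id2. It was 0.58 between Lefty1 and Lefty2, and 0.0028 between Nodal and Lefty1. These values describe 16 points whose groups share a normalization within a table. By the same measure, among 10768 genes with a mean of at least 2 on the log2 CPM scale in each table, those closest to Nodal were Inpp5d (r = 0.98), Dennd2c (0.94) and Tnfsf12 (0.94), those closest to Lefty1 were Gm4366 (0.92), Akap13 (0.87) and Ltbr (0.85), and those closest to Id1 were Ddx39 (0.77), Trub1 (0.76) and Timm44 (0.75).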

How the data were processed

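RNA was sequenced from 34 libraries of E14tg2a cells in 3 tables, made with a stranded kit per the labels' protocols. The authors deposited whole-number counts per gene symbol; the submitters' processing notes name Trim Galore, HISAT2, featureCounts and build mm10, while versions and the strand setting are not given in the sources used here. Another table repeats 8 genotype libraries and was not used, and 6 bisulfite libraries were not analysed here. Each table was fitted whole with edgeR 4.0.16 in R 4.3.3 (filterByExpr, TMM factors, quasi-likelihood F test, group as the only term), with Benjamini-Hochberg adjustment over all genes tested and calls at an adjusted p under 0.05. Log2 fold changes carry a prior count of 0.125, and the SE is the absolute log2 fold change divided by the square root of F. Every adjusted p comes from that test unless another tool is named. Overlap of libraries and unadjusted p-values are given for the named genes only, without the share of all genes beside them. The DuxKO changes of the Pramel7 and genotype tables were compared in 1 fit of both, an alternative chosen after seeing the data.

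The alternatives were a 2-fold minimum, relative log expression factors, no filter, DESeq2 1.42.0, a fit of only the groups compared, a replicate block, WT replicates 3 and 4 or 5 and 6 alone, and leaving out each library. Where that leaves 1 library in a group, it is assumed to vary like the other groups. The 10 genes and all lists were chosen with earlier results of these data known. Named pathway genes are at most 3 per direction and comparison, those called with the largest absolute log2 fold change and a mean of at least 50 counts in the higher group. Some genes that this rule names are not reported here. The r between deviations of same-numbered libraries was -0.413 to 0.181 in the genotype table, -0.0822 to 0.112 in the Pramel7 table and -0.204 to 0.0916 in the time course. With 2 libraries in most groups, whose deviations mirror each other, these values cannot show whether the numbers pair samples. Replicates differed by more than sampling noise (chi-square per gene 12.93 to 146.9 over 21 pairs), so none was a copy.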

Additional observations from a re-analysis of the deposited data

Results flagged for a closer look

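Effects under the same contrast differed between backgrounds for the following genes, each by a test of the difference itself with an adjusted p under 0.05 from edgeR; values are differences of log2 fold changes. The change with Ctbp loss in the Dux knockout background minus that in the Dux-bearing one was 0.66 for Nodal, 1.61 for Lefty1, 1.42 for Lefty2, 1.43 for Tdgf1, 1.41 for Skil, -1.64 for Id1 and 1.50 for Bmp4. The same difference for the Dppa2 knockout background was 1.40 for Lefty2 and -0.63 for Id1. The change with Pramel7 overexpression in Dux knockout cells minus that in Dux-bearing cells was 1.26 for Lefty2, -1.01 for Smad7, 1.09 for Skil, -1.60 for Id2 and -0.70 for Id3. The DuxKO change in the genotype table minus that in the Pramel7 table was -0.86 for Smad7, 1.75 for Id1 and 0.96 for Id3; table and experiment cannot be told apart there.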

How the results depend on the processing

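Among single-gene results called before or after the change of setting, the direction reversed in 1. Lefty1 in P7OE against WT, at 0.0065 over all 4 WT libraries, was -0.33 with only WT replicates 3 and 4. Direction was not compared where a result was called in neither. Results kept their side of the threshold, and their direction where called, in 219 of 220 cases with relative log expression factors. The counts were 211 of 220 without the filter, 214 of 220 with DESeq2 and 199 of 210 with only the groups compared. They were 167 of 220 with a 2-fold minimum and 1028 of 1140 when 1 library was left out.

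With a 2-fold minimum the calls among the 10 genes were 3 in CtbpDKO against WT, 5 in DuxKO against WT of the genotype table and 2 of the Pramel7 table, 1 in Dppa2KO against WT, 1 in Ctbp_DuxTKO against CtbpDKO, 4 against DuxKO, 3 in DKO_Dppa2KO against Dppa2KO, 1 in the interaction of Ctbp and Dppa2 loss, 1 in P7OE against WT, 5 in DuxKO_P7OE against DuxKO, 2 in P7KO against WT, 0 in day 3 against 0, 1 in day 9 against 0, 0 in day 9 against 3, 1 in day 12 against 9, 0 in day 18 against 0, and 1 in the difference between the tables. With only the groups compared, 1 call was left in the interaction of Ctbp and Dppa2 loss, 2 in day 9 against 3, 1 in day 18 against 12 and 0 in day 18 against 0. Day 18 against 0 had 2 calls without the filter and 2 with DESeq2.

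Leaving out 1 library gave 6 to 7 calls for CtbpDKO against WT, 6 to 8 for DuxKO against WT in the genotype table and 5 to 8 in the Pramel7 table, 2 to 4 for Dppa2KO, P7OE and P7KO against WT, 6 to 8 for DuxKO_P7OE against DuxKO, 1 to 3 for the interaction of Ctbp and Dppa2 loss, 3 to 7 for that of Pramel7 overexpression and Dux loss, 1 to 3 for day 3 against 0, 3 to 4 for day 9 against 0, 0 for day 9 against 3, 1 to 2 for day 12 against 9, 0 to 2 for day 18 against 12 and against 0, and 1 to 4 for the difference between the tables. The cause was not tested.

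With a replicate block, by numbers not known to pair samples, 164 of 170 results kept their call. The calls were 1 in the interaction of Ctbp and Dppa2 loss (Id1 lost) and 1 in DuxKO_P7OE against P7OE (Lefty1 gained, adjusted p = 0.0458). Day 9 against 3 had 1 call (Lefty2, Id1 and Bmp4 lost). Lefty1 was gained in DuxKO against WT of the Pramel7 table (adjusted p = 0.000777).

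Over all genes, the 6 calls of DuxKO_P7OE against P7OE became 350 without the filter, 147 with DESeq2, 63 with only the groups compared and 333 with the block. DuxKO against WT in the Pramel7 table had 3361 calls, and 2104 with only the groups compared; P7KO against WT had 1911, and 1073. With only WT replicates 3 and 4, P7OE against WT went from 4003 to 6124 and P7KO against WT from 1911 to 4693. Without the filter, calls went from 1029 to 1634 (day 3 against 0), 230 to 789 (day 9 against 3), 791 to 1361 (day 12 against 9), 169 to 652 (day 18 against 12) and 106 to 566 (day 18 against 0). Leaving out 1 library moved the counts that give the shares of all genes called by over 1.5 times in every comparison but Ctbp_DuxTKO against DuxKO (8685, 6191 to 7405) and DKO_Dppa2KO against Dppa2KO (6452, 4536 to 4947). The ranges were 3543 to 4048 for CtbpDKO against WT (5522), 1825 to 2046 for DuxKO against WT in the genotype table (3707) and 1208 to 3533 in the Pramel7 table (3361), 1616 to 2379 for Dppa2KO against WT (3467), 558 to 1250 for Ctbp_DuxTKO against CtbpDKO (1727), 1272 to 2058 for DKO_Dppa2KO against CtbpDKO (3268), 1477 to 4818 for P7OE against WT (4003), 1925 to 2675 for DuxKO_P7OE against DuxKO (4320), 2 to 11 for DuxKO_P7OE against P7OE and 518 to 2426 for P7KO against WT. They were 340 to 607 for day 3 against 0, 652 to 969 for day 9 against 0 (1512), 51 to 101 for day 9 against 3, 210 to 303 for day 12 against 9, 38 to 213 for day 18 against 12 and 27 to 233 for day 18 against 0. For the interactions they were 2638 to 3710 (Ctbp and Dux loss, 4124), 773 to 1310 (Ctbp and Dppa2 loss, 1745) and 651 to 1939 (Pramel7 overexpression and Dux loss, 1512), and 121 to 1248 for the difference between the tables (635, the highest without WT replicate 6).

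With 2 libraries in most groups, and at most 11089600 counts in DuxKO_P7OE, small differences were not detectable.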
